A study of Rattus norvegicus with 8 samples.

Results

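Il6, the chemokine genes Ccl2 and Cxcl1, the cytokine gene Il1b, the adhesion molecule genes Icam1 and Vcam1 and the NF-kB inhibitor gene Nfkbia are described here across the arrays of untreated and nitric oxide donor treated smooth muscle cells. The members are all probe sets annotated to one of these 7 symbols alone, which gave 13 of the 8799 probe sets in the table and covered 6 of the 7 genes. Il6, Ccl2, Icam1, Vcam1 and Nfkbia had 2 probe sets each and Il1b had 3. No probe set carried Cxcl1 alone, and Cxcl1 was not analysed here. Probe sets of 1 gene share its transcript and are not replicates of each other.

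The cells were primary pulmonary artery smooth muscle cells of adult Sprague-Dawley rats, grown out of arteries from which endothelium and adventitia had been removed, so they are explant cultures and not intact artery wall. They were left untreated (control) or exposed for 1, 2 or 4 h to S-nitrosoglutathione (GSNO), a glutathione adduct that releases nitric oxide, with 2 arrays in each of the 4 groups, numbered 1 and 2. The sources disagree on its concentration: 100 μmol/L stands in the series design and 100 mmol/L in the treatment protocol. The control has no stated time, so time in culture and GSNO cannot be told apart, and the design speaks of a pair of cell preparations without tying them to the array numbers; p-values may therefore measure only the spread between arrays.

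The values are the array software's signals on a linear scale, with a trimmed mean between 500.7 and 501.0 on the 8 arrays and a median between 99.7 and 140.5. Arrays numbered 1 and 2 were scanned on different days and on different chip lots, and the first 1 h array had a chip lot to itself, so that lot and 1 h of GSNO cannot be told apart among the arrays numbered 1. The arrays numbered 2 share 1 recorded experiment, but of the arrays numbered 1, control and 2 h belong to another experiment than 1 h and 4 h, so differences between arrays numbered 1 at 1 h and 4 h also cross experiments. The labelled cell type was checked against its markers: of 13 smooth muscle genes 10 were on the array, with a summed signal between 54163 and 90738, while Des stayed between 13.4 and 29.7 on every array. The 9 macrophage and leukocyte markers on the array summed to 563 to 985, the 6 endothelial markers to 319 to 686, and the 7 fibroblast and adventitia markers to 22300 to 36233. In such bulk RNA, fewer cells of a type and less RNA per cell cannot be told apart.

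NF-kB is a family of dimeric transcription factors held in the cytoplasm by inhibitors of the IkB family, of which Nfkbia encodes the best known. Cytokines such as interleukin 1 beta, the product of Il1b, trigger phosphorylation and loss of the inhibitor, after which NF-kB enters the nucleus and induces cytokines, chemokines, adhesion molecules and Nfkbia itself. Il6 encodes interleukin 6, a cytokine whose promoter is also bound by C/EBP and CREB family factors, and which smooth muscle cells are known to secrete.

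The proximal promoters of Il6, Nfkbia, Vcam1 and Icam1 are shown because the first of these genes had the clearest response and the others did not pass the test. Each runs from 250 bases before to 50 bases after the annotated gene start, 5′ to 3′ on the gene's strand, taken from RefSeq on the GRCr8 build. Capitals mark matches, on either strand, to 3 motifs. These are the kappa B consensus GGGRNWYYCC bound by NF-kB, the cyclic AMP response element TGACGTCA and the C/EBP motif TTNNGCAA. R is A or G, W is A or T, Y is C or T, and N is any base. Sites that depart from these letters in any base are not marked.
Il6, chr4:5894526-5894825, minus strand: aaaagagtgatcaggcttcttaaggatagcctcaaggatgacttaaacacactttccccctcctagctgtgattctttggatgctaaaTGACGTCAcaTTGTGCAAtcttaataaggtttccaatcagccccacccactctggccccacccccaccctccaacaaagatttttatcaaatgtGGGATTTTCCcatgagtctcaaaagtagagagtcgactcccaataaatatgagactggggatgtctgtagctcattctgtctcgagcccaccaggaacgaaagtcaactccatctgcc
Nfkbia, chr6:78597023-78597322, minus strand: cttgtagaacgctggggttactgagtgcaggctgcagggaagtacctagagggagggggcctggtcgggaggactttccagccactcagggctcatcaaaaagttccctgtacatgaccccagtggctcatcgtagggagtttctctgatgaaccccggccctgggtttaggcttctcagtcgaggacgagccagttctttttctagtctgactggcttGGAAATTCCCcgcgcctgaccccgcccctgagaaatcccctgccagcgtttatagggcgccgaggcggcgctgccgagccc
Vcam1, chr2:206742734-206743033, minus strand: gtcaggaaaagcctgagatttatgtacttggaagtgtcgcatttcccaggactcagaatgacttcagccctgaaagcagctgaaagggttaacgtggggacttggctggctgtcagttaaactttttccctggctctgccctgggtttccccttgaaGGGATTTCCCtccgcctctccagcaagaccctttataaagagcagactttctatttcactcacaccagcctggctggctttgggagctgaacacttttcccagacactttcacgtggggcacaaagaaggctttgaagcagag
Icam1, chr8:27829595-27829894, plus strand: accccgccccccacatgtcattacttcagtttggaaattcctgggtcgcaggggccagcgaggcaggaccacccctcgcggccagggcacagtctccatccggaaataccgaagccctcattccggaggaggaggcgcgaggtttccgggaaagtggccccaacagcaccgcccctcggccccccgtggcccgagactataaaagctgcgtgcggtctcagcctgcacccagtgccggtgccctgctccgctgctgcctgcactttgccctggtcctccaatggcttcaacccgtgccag

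The RefSeq table held promoters for 6 of the 7 genes, Ccl2 being the other one. In the Il6 promoter the cyclic AMP response element starts 162 bases before the gene start, the C/EBP match 152 and the kappa B match 68, and none of the 3 overlap. A kappa B match lies 31 bases before the start of Nfkbia and 93 before that of Vcam1. The Cxcl1 promoter has a pair of overlapping kappa B matches, starting 84 and 83 bases before the start. Il1b has a C/EBP match alone, after the gene start, and Icam1 has no match to these letters in this window. The Icam1 window does hold tggaaattcc, which departs from the kappa B letters in its first base. The lack of a match is therefore not the lack of a kappa B site. Of 33469 rat promoters of the same length, 4.18% held a kappa B match, 1.83% a cyclic AMP response element, 10.6% a C/EBP match, and 3 promoters held all of these. An AP-1 motif, TGANTCA on either strand, was found in none of the 6 windows and in 7.33% of all 33469. Bases outside these windows were not searched, so sites further upstream would be missed. The motifs were chosen because such sites are known in the Il6 promoter, so these matches are a description and no test.

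**Figure D1:**
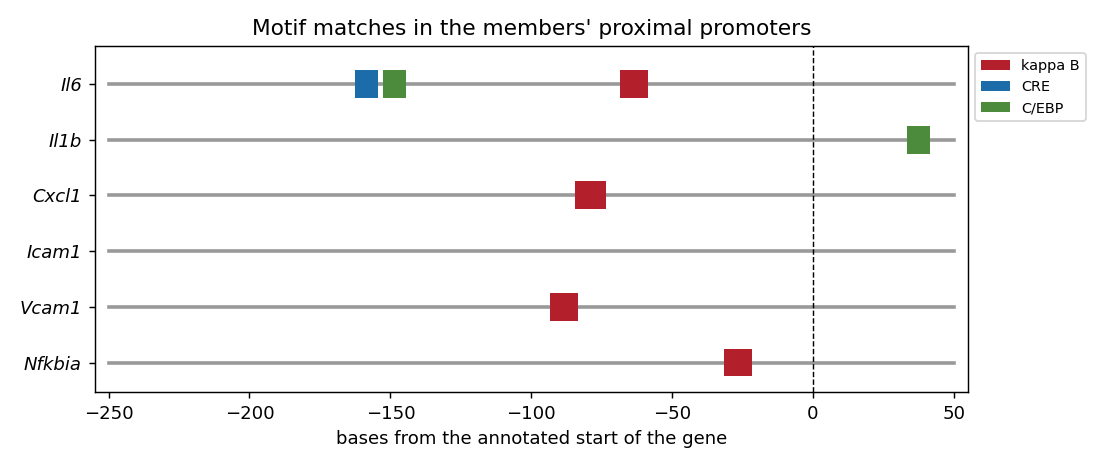
Positions of motif matches in the proximal promoters of the 6 member genes in the RefSeq table. The horizontal axis is the distance in bases from the annotated gene start (dashed line), grey lines are the 300-base windows, and coloured boxes are matches on either strand. Il6 is the member with 1 match of each of the 3 kinds, and Icam1 has no match to these exact letters.

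Il6 was low in untreated cells and rose with GSNO in both of its probe sets. The probe set M26744_at read 26.6 and 15.8 in control, 127 and 187 after 1 h, 837 and 403 after 2 h, and 669 and 1057 after 4 h, on the arrays numbered 1 and 2. Every GSNO array lay above both control arrays, and both 2 h and 4 h arrays lay above both 1 h arrays, while the 2 h and 4 h values overlapped. Its signal exceeded that of 18.9% and 16.4% of the non-control probe sets on the control arrays, and of 82.4% and 85.8% at 4 h. The probe set M26745cds_s_at read 6.92 and 9.59 in control, 31.4 and 48.9 at 1 h, 248 and 170 at 2 h, and 263 and 536 at 4 h. It followed the same order, and here the 4 h arrays lay above both 2 h arrays. The log2 values of the 2 probe sets correlated at 0.973 over the 8 arrays.

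Changes against control are log2 fold changes of the signal plus an offset of 21.1, tested with limma over 5877 probe sets with Benjamini-Hochberg adjustment at a threshold of 0.05. The offset understates the change of weak probe sets. At 4 h, M26744_at averaged 863 ± 274 against 21.2 ± 7.63 in control (SD, n = 2 each), a ratio of mean signals of 40.7, and the log2 fold change reached 4.36 ± 0.42 (SE; limma adjusted p = 0.00229). Without detection calls the control signal cannot be told from background, and the ratio depends on it. M26745cds_s_at averaged 399 ± 193 at 4 h and 8.25 ± 1.89 in control (SD, n = 2 each), and its log2 fold change was 3.76 ± 0.43 (SE; limma adjusted p = 0.00522). At 2 h the log2 fold changes were 3.85 ± 0.42 and 2.95 ± 0.43 (SE; limma adjusted p = 0.00518 and 0.0191). The second of these calls was lost on leaving out either control array or either 2 h array (adjusted p up to 0.157). At 4 h the 4 differences between same-numbered arrays ran from 3.34 to 4.87, and at 2 h from 2.64 to 4.17.

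At 1 h, Il6 stood between these levels. M26744_at gave 2.07 ± 0.42 (SE), which did not pass without the replicate block (limma adjusted p = 0.141) and passed once the array number entered as a replicate block (adjusted p = 0.0274). Its difference was 1.64 for the arrays numbered 1, across experiments, and 2.50 for those numbered 2. Blocking on the recorded experiment gave an estimate of 2.70 (limma adjusted p = 0.0113). M26745cds_s_at gave 1.05 ± 0.43 (SE; limma adjusted p = 1.00, and 0.688 with the replicate block).

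Comparing exposure times, Il6 was higher at 4 h than at 1 h by 2.71 ± 0.43 on the log2 scale in M26745cds_s_at (SE; limma adjusted p = 0.0467). Of all tested probe sets 0.476% were called in that comparison. This call was lost on leaving out any 1 array, with adjusted p between 0.0654 and 0.272. In M26744_at the difference was 2.29 ± 0.42 (SE), with limma adjusted p = 0.0719 and 0.0088 with the replicate block, where both Il6 probe sets and 5.1% of all tested probe sets were called. Between 1 and 2 h the differences were 1.78 and 1.91, both with limma adjusted p = 0.928, and with the block 0.148 and 0.141 (0.034% of all probe sets called). Between 2 and 4 h they were 0.52 and 0.81 (limma adjusted p = 0.924 and 0.872), and no member was called with the block, where 0.544% of all probe sets were. The 95% interval of the M26744_at difference between 4 and 2 h ran from -0.45 to 1.48, so neither a further rise nor a plateau can be told from these arrays.

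**Figure D2:**
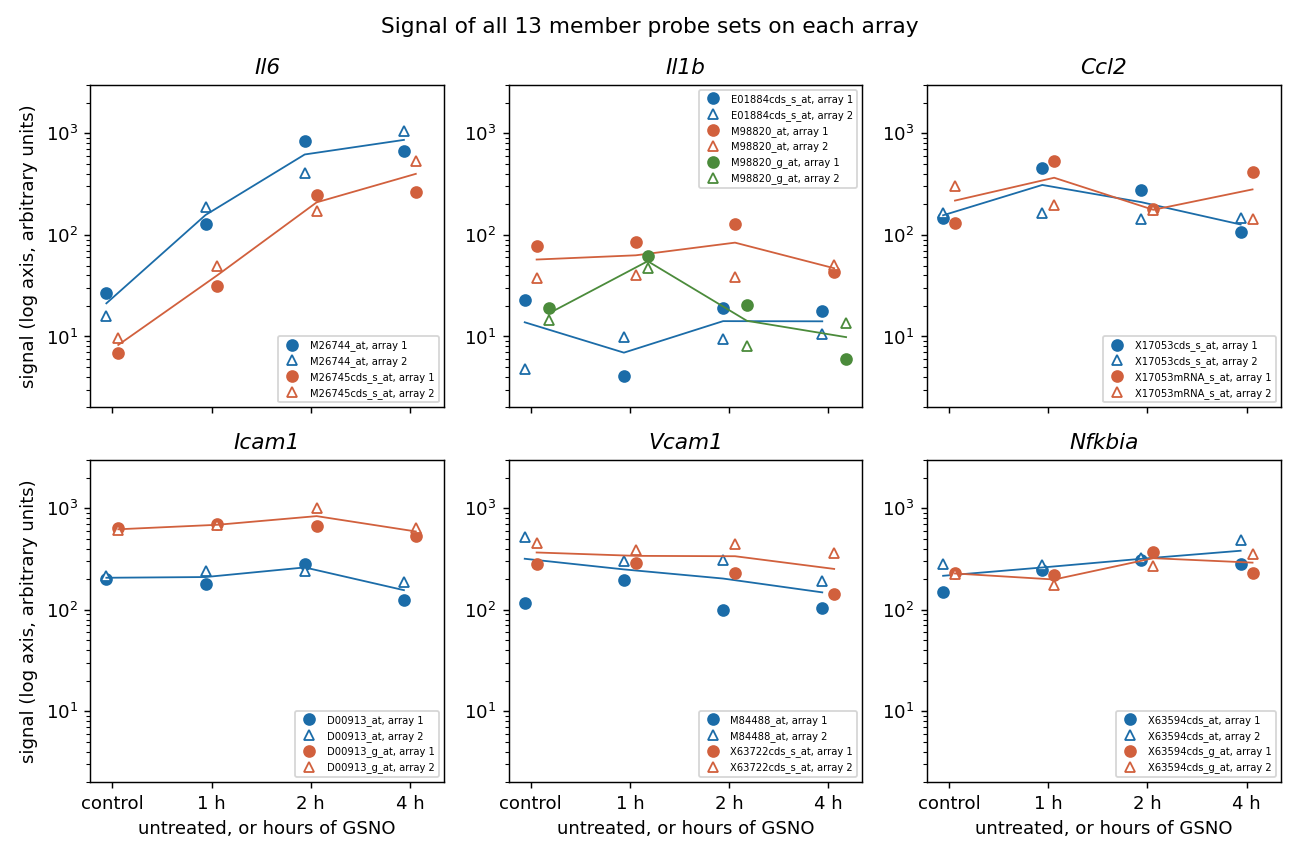
Signal of the 13 member probe sets on the 8 arrays, on a log axis, with 1 panel per gene. Filled circles are arrays numbered 1, open triangles arrays numbered 2, colours are probe sets, and lines join the group means. Il6 averages 399 and 863 at 4 h in its 2 probe sets, against 8.25 and 21.2 in control, while the other genes stay within a narrower band.

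Against this, none of the other member genes passed the test at any time. A probe set was tested when it reached its array's 40th percentile on at least 2 arrays: 11 of the 13 did, and 2 of Il1b did not. Both Il6 probe sets and M98820_at of Il1b reached it only on GSNO arrays, so a count over the tested members is a description. Without this filter, over 8740 probe sets, both Il6 probe sets again passed at 2 h and 4 h, and none of the 13 passed at 1 h, where 0.664%, 0.938% and 0.297% of all were called. In the main fit 0 members were called at 1 h, 2 at 2 h and 2 at 4 h, where 0.527%, 0.97% and 1.53% of all tested probe sets were called. With the replicate block 1, 2 and 2 members were called, where 1.34%, 3.16% and 7.93% were. The 2 members called were the Il6 probe sets each time, and the 1 at 1 h was M26744_at.

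Over all 13 probe sets, including those below the filter, the median log2 fold change was 0.14 at 1 h, 0.32 at 2 h and -0.07 at 4 h, against -0.05, 0.01 and -0.18 over all 8740. Both arrays exceeded both control arrays for 5 members at 1 h (10.1% of the 8740 probe sets did so), 6 at 2 h (13.4%) and 2 at 4 h (10.6%). Both arrays lay below both control arrays for 1 member at 1 h, 0 at 2 h and 3 at 4 h, against 14.7%, 13.6% and 30.4% of all. At 4 h the median over the 5877 tested probe sets was -0.16, and it became -0.01 after scaling to a common median, so small negative values at 4 h lie within this shift. Both Il6 probe sets kept their calls at 2 h and 4 h under that scaling and under quantile normalization.

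**Figure D3:**
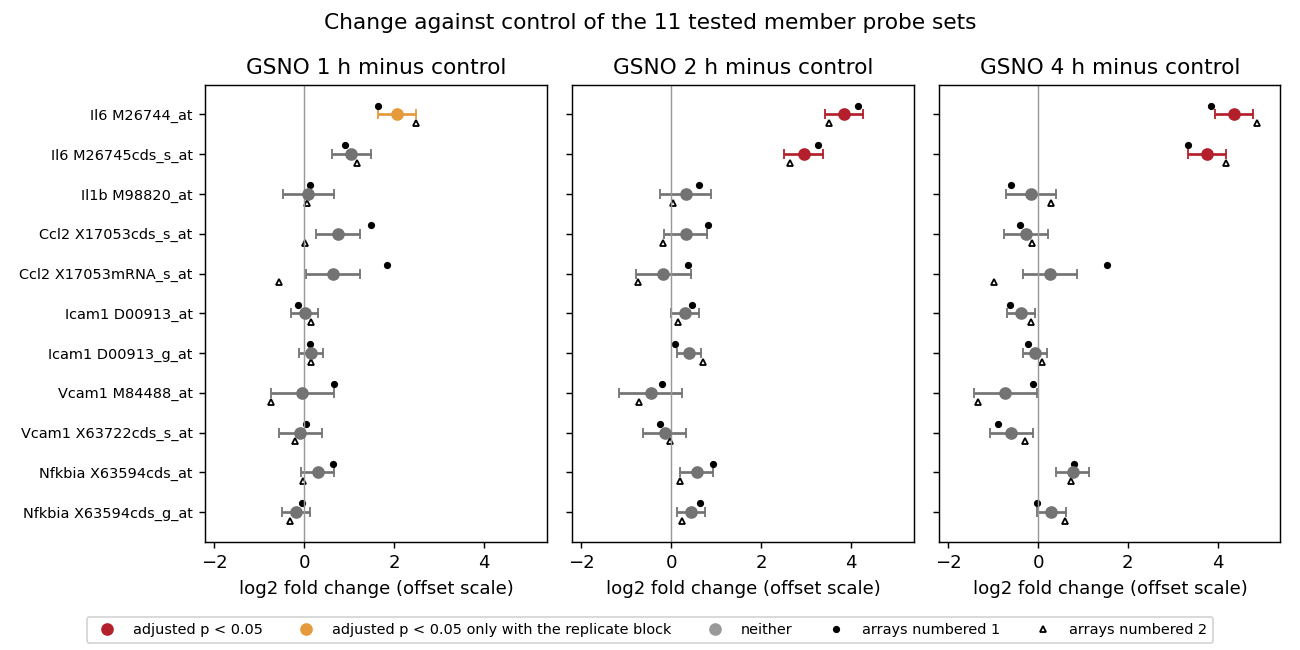
Log2 fold change against control of the 11 tested member probe sets at 1, 2 and 4 h. Large points with bars are limma estimates with their SE, coloured by whether the adjusted p lay under 0.05, and the small symbols are the differences within the arrays numbered 1 and 2. The 2 Il6 probe sets lie between 2.95 and 4.36 at 2 h and 4 h, and all other members lie between -0.73 and 0.77.

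Il1b, the upstream cytokine, was weak on these arrays. Its strongest probe set, M98820_at, lay between 29.1% and 48.2% up the ranked signals of its array and read 77.1 and 37.4 in control, 85.7 and 40.3 at 1 h, 129 and 38.8 at 2 h, and 43.5 and 50.5 at 4 h. The groups overlapped, and at 4 h the log2 fold change was -0.16 with a 95% interval from -1.46 to 1.14. The overlapping probe set M98820_g_at read 62.6 and 47.7 at 1 h, against 19.2 and 14.4 in control, and 6.04 and 13.7 at 4 h. Both 1 h values lay above both controls but under the 40th percentile of their arrays. E01884cds_s_at stayed between 4.05 and 22.8 on the 8 arrays.

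Ccl2, the chemokine that draws monocytes, was high on single arrays and did not pass the test. X17053cds_s_at read 148 and 164 in control, 455 and 166 at 1 h, 277 and 143 at 2 h, and 107 and 147 at 4 h. X17053mRNA_s_at read 132 and 304 in control, 532 and 199 at 1 h, 179 and 175 at 2 h, and 419 and 142 at 4 h. The highest value in each probe set came from the first 1 h array, whose chip lot no other array shares. At 1 h the log2 differences between arrays numbered 1 were 1.49 and 1.86, and those between arrays numbered 2 were 0.02 and -0.56. The pooled estimates at 1 h were 0.75 ± 0.49 and 0.65 ± 0.61 (SE), both with limma adjusted p = 1.00, and the 95% interval of the first ran from -0.36 to 1.87. With the recorded experiment as the block the X17053mRNA_s_at estimate turned negative, to -0.31 at 1 h and to -0.69 at 4 h, against 0.27 at 4 h without it. The log2 values of the 2 probe sets correlated at 0.388 over the 8 arrays, so they give no common profile.

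Icam1, the leukocyte adhesion receptor, did not pass the test in any comparison. D00913_g_at read 631 and 608 in control, 696 and 677 at 1 h, 667 and 1003 at 2 h, and 534 and 645 at 4 h. D00913_at read 200 and 213 in control, 180 and 240 at 1 h, 283 and 238 at 2 h, and 123 and 188 at 4 h. In both probe sets the 2 h arrays lay above both controls, by 0.39 ± 0.27 and 0.31 ± 0.31 on the log2 scale (SE), with limma adjusted p = 1.00 each. The 95% interval of the D00913_g_at change was -0.22 to 1.00 at 2 h and -0.69 to 0.54 at 4 h. D00913_at lay below both controls on both 4 h arrays (-0.39 ± 0.31, SE; limma adjusted p = 0.703). The 4 h arrays lay below both 2 h arrays in both probe sets. The log2 differences were -0.69 in D00913_at and -0.46 in D00913_g_at (limma adjusted p = 0.856 and 0.881).

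Vcam1, whose product binds integrins on monocytes and lymphocytes, varied more with the array number than with GSNO. M84488_at read 116 and 519 in control, 195 and 304 at 1 h, 98.4 and 307 at 2 h, and 105 and 191 at 4 h, higher on the array numbered 2 in every group. X63722cds_s_at read 281 and 451 in control, 292 and 387 at 1 h, 232 and 441 at 2 h, and 142 and 363 at 4 h, with the same split. At 4 h the estimates were -0.73 ± 0.70 and -0.60 ± 0.48 (SE), with limma adjusted p = 0.76 and 0.705. With the replicate block they did not pass either (adjusted p = 0.273 and 0.229).

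Nfkbia, the inhibitor that NF-kB induces as its own feedback, did not pass the test at any time. X63594cds_at read 151 and 281 in control, 246 and 275 at 1 h, 308 and 327 at 2 h, and 280 and 481 at 4 h. Its 2 h arrays lay above both controls, and its log2 fold change was 0.57 ± 0.37 at 2 h and 0.77 ± 0.37 at 4 h (SE; limma adjusted p = 1.00 and 0.497). At 4 h the differences between same-numbered arrays were 0.81 and 0.73, and with the replicate block the adjusted p was 0.134. X63594cds_g_at read 230 and 225 in control, 221 and 176 at 1 h, 371 and 272 at 2 h, and 227 and 354 at 4 h, and gave 0.30 ± 0.31 at 4 h (SE; limma adjusted p = 0.788). Its 2 h arrays also lay above both controls, with an estimate of 0.45 ± 0.31 (SE) that did not pass. At 1 h both of its arrays lay below both controls, with an estimate of -0.19 ± 0.31 (SE; limma adjusted p = 1.00). The 95% interval of the X63594cds_at change at 4 h ran from -0.07 to 1.61, which includes 0. Each other member was compared with M26744_at of Il6 by its tested probe set with the highest mean. X63594cds_at of Nfkbia was nearest, with a correlation of 0.715 over the 8 arrays, against values between -0.372 and 0.129 for Il1b, Ccl2, Icam1 and Vcam1. The 2 Nfkbia probe sets correlated at 0.557 with each other. These arrays share runs and groups, and the correlations describe them only.

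Of the surrounding machinery, only a part had probe sets of its own on the array and above the filter. Among 17 NF-kB subunits, inhibitors and kinases, 2 had a probe set annotated to them alone. Both were tested, and 0 passed without the block. The others were not measured here, so nothing is known of their level. Nfkb1, which encodes the p105 precursor of an NF-kB subunit, read 2029 and 2425 at 2 h and 1875 and 2402 at 4 h, against 870 and 967 in control. Its log2 fold change was 1.25 ± 0.24 at 2 h and 1.19 ± 0.24 at 4 h (SE; limma adjusted p = 0.0677 and 0.0624), and it rose with the replicate block (adjusted p = 0.00402 and 0.00383). Of 22 receptors and adaptors upstream, 7 were tested and 0 passed without the block, with a median of -0.03, 0.18 and -0.10 at 1, 2 and 4 h. Among all tested probe sets 0.527%, 0.97% and 1.53% were called at these times, and 1.34%, 3.16% and 7.93% with the block. Beside such shares, 0 calls without the block in 2 and in 7 genes are no result about these lists. Tnfrsf1a, a receptor for tumour necrosis factor, read 2387 and 3290 at 4 h, against 890 and 1121 in control (1.47 ± 0.39, SE; limma adjusted p = 0.133, and 0.00178 with the block).

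Other cytokines and chemokines did not pass at any time, with or without the block, in the 11 of 30 listed genes that were tested. Among all tested probe sets 0.527%, 0.97% and 1.53% were called at 1, 2 and 4 h. With the block the shares were 1.34%, 3.16% and 7.93%. Beside such shares, no call in 11 genes is no result about this list. The median log2 fold change of the 11 was -0.04 at 1 h, -0.22 at 2 h and -0.33 at 4 h. Lif, a cytokine of the interleukin 6 family, read 89.6 and 100.2 at 1 h and 106 and 111 at 2 h, against 24.1 and 22.3 in control. On the control and 4 h arrays Lif lay under the 40th percentile, so it was tested through its 1 h and 2 h arrays only. Its log2 fold change was 1.39 at 1 h and 1.55 at 2 h (limma adjusted p = 0.444 and 0.161, and 0.261 and 0.0792 with the block), and 0.31 at 4 h. Il15 and Pf4 gave -1.13 each at 2 h (limma adjusted p = 1.00 and 0.97). At 2 h Il15 read 25.5 and 258, against 181 and 286 in control, so its fall lay mainly on the array numbered 1. Pf4 read 43.1 and 14.9, against 127 and 53.2 in control.

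Other target genes of NF-kB were mixed. Of 29 listed, 18 were tested: 0 fell, while 1 rose at 1 h, 1 at 2 h and 2 at 4 h. Of all 5877 tested probe sets 0.493%, 0.783% and 0.953% rose at these times. Ier3, an early response gene that affects cell survival, read 3483 and 3025 at 1 h, 4537 and 4302 at 2 h and 3093 and 4551 at 4 h, against 883 and 482 in control. It rose by 2.28, 2.72 and 2.48 on the log2 scale (limma adjusted p = 0.03, 0.0087 and 0.0098). Its other probe set gave 1.51, 1.86 and 1.58, of which the value at 1 h did not pass (limma adjusted p = 0.0967). Sod2, the mitochondrial superoxide dismutase, read 786 and 576 at 4 h, against 192 and 158 in control (1.83, limma adjusted p = 0.0209).

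With the replicate block, 3 of these targets rose and 1 fell at 4 h, where 4.25% of all tested probe sets rose and 3.68% fell. Lcn2, which encodes a siderophore-binding protein, read 383 and 247 at 4 h, against 76.4 and 69.4 in control (1.81; limma adjusted p = 0.0754, and 0.0076 with the block). Ptgs2, the inducible prostaglandin synthase, was the gene that fell with the block: it read 92.2 and 50.6 at 4 h, against 315 and 168 in control (-1.48; limma adjusted p = 0.17, and 0.0351 with the block). At 1 h it had read 851 and 626 (1.57; adjusted p = 0.0969 with the block). Its other probe set gave -1.19 at 4 h (adjusted p = 0.0921 with the block). The list's median was 0.30, 0.24 and 0.09 at 1, 2 and 4 h.

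Of 16 genes for the interleukin 6 receptor and its signal transducers, 9 were tested and 0 passed without the block, with a median between -0.01 and 0.03. Among all tested probe sets 0.527%, 0.97% and 1.53% were called at 1, 2 and 4 h, and 1.34%, 3.16% and 7.93% with the block. Il6r, the ligand-binding receptor chain, read 263 and 373 at 2 h, against 82.4 and 102.6 in control (1.56 ± 0.29, SE; limma adjusted p = 0.0612), and rose with the block (adjusted p = 0.00994). At 4 h it read 212 and 202 (1.01; adjusted p = 0.0486 with the block).

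Among 15 transcription factors with known sites in the Il6 promoter, 12 were tested, and 3 rose at 1 h, 2 at 2 h and 2 at 4 h, with 0 that fell, against the same shares of all tested probe sets. Their median log2 fold change was 0.49, 0.51 and 0.54 at the 3 times. Crem, a cyclic AMP responsive modulator that binds the element shown above, read 3137 and 2089 at 1 h, 6118 and 3892 at 2 h and 5811 and 5189 at 4 h, against 278 and 240 in control. It rose by 3.21, 4.13 and 4.30 on the log2 scale (limma adjusted p = 0.00472, 0.000845 and 0.000771). Cebpb, a C/EBP factor first described as nuclear factor for interleukin 6 in human cells, read 5946 and 4629 at 1 h, 3981 and 4755 at 2 h and 4133 and 4460 at 4 h, against 884 and 966 in control. Its log2 fold change was 2.48, 2.21 and 2.19 at the 3 times (limma adjusted p = 0.00472, 0.00507 and 0.00397). Junb, an AP-1 subunit, read 4966 and 3165 at 1 h, against 968 and 540 in control (2.42; limma adjusted p = 0.0239), and its other probe set gave 2.48 without passing (limma adjusted p = 0.078). In the probe sets given here, Cebpb and Junb had their highest mean at 1 h and Crem at 4 h, while the Crem probe set U04835_at was highest at 2 h (log2 fold change 3.91, against 3.40 at 4 h). With the block 3 of the factors rose at each time, where 1.14%, 2.19% and 4.25% of all tested probe sets rose. Junb had adjusted p = 0.0299 at 2 h and 0.0471 at 4 h with the block. Its other probe set, X54686cds_at, passed with the block at 2 h (adjusted p = 0.00451) but not at 4 h (0.80, adjusted p = 0.0833). The comparisons with control share the same 2 control arrays.

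**Figure D4:**
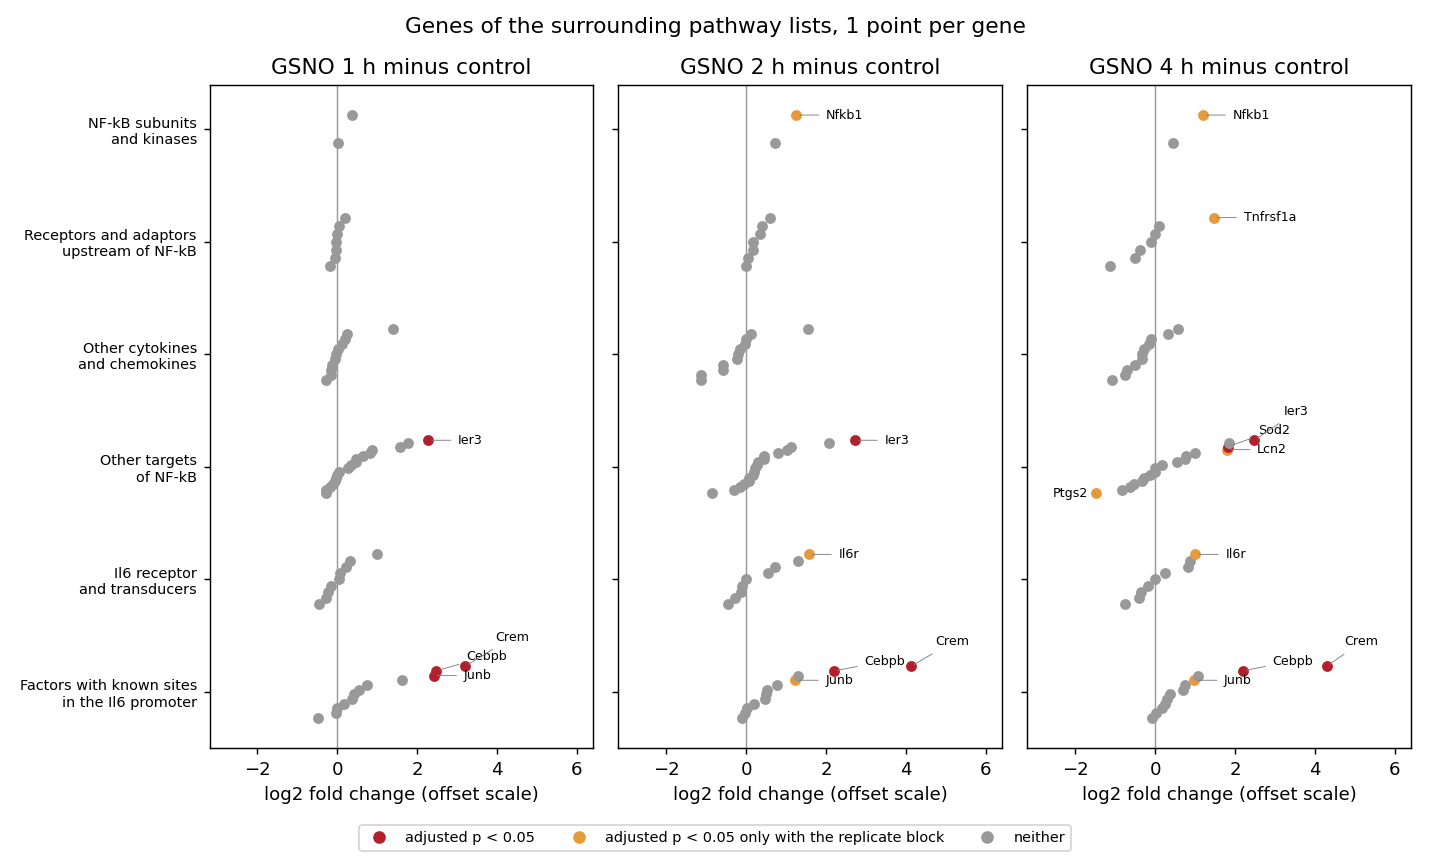
Log2 fold change against control at 1, 2 and 4 h for the tested genes of the 6 surrounding lists, 1 point per gene, coloured by whether the adjusted p lay under 0.05 without or only with the replicate block. The 2 genes furthest to the right among Il6 promoter factors at 4 h are Crem at 4.30 and Cebpb at 2.19. The cytokine list has no coloured point among its 11 genes, where at most 7.93% of all tested probe sets were called.

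By correlation of log2 signal over the 8 arrays among 1900 genes with a range of at least 1, the profile most like that of Il6 was that of Gclc, which catalyses the rate-limiting step of glutathione synthesis (r = 0.968). It was followed by Cyp1b1, a cytochrome P450 (0.966), Hmox1, the inducible haem oxygenase (0.959), Gchfr, the feedback regulator of tetrahydrobiopterin synthesis (0.951), and Mapkapk2, a kinase downstream of p38 (0.949). No cytokine, chemokine or other member stood among these 5. Icam1 could not, because its range was under 1. The share of such genes among the 1900 was not counted, so their absence is no result about them. Mapkapk2 had a small range: it read 989 and 1196 at 4 h, against 561 and 461 in control. All arrays of a profile share the same 4 groups and runs, so these values are descriptions.

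**Figure D5:**
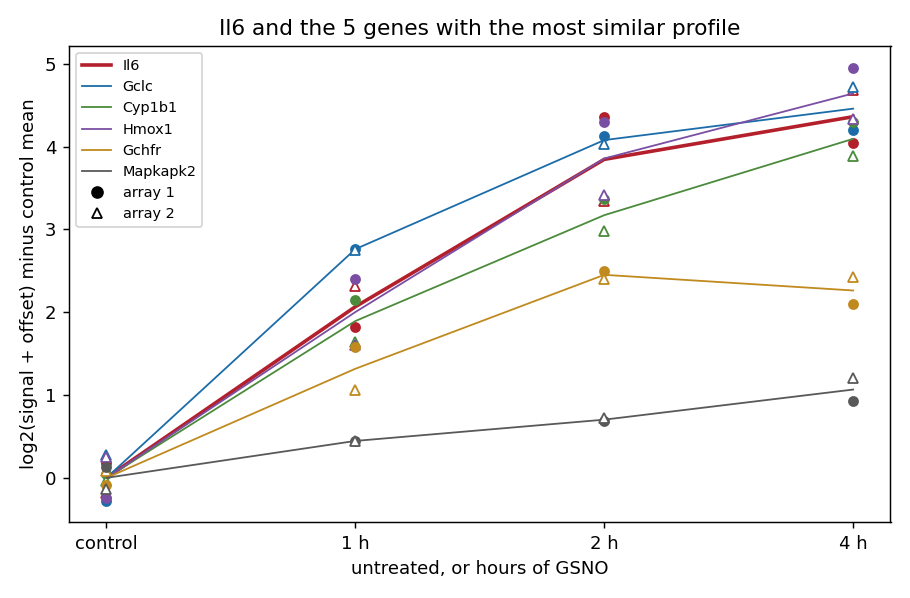
Log2(signal + offset) minus the control mean for Il6 and the 5 genes with the most similar profile, by group. Lines join group means, filled circles are arrays numbered 1 and open triangles arrays numbered 2. Il6 reads 4.04 and 4.68 at 4 h, Gclc 4.20 and 4.72 and Hmox1 4.95 and 4.33, while Mapkapk2 reads 0.93 and 1.20.

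Signals of other cell types were set beside the Il6 rise. The 9 macrophage and leukocyte markers, of which 4 passed the filter, summed to 563 and 853 at 4 h, against 724 and 977 in control. At 1 h they summed to 709 and 985, and at 2 h to 928 and 911. Ptprc, the leukocyte common antigen, read 112 and 126 in control, 111 and 169 at 1 h, 248.8 and 88.8 at 2 h, and 52.6 and 116 at 4 h. It was highest on the first 2 h array, where Il6 read 837 in M26744_at and the T cell marker Cd8a read 67.1, against 20.7 and 11.3 in control. Cd8a did not pass the filter, and 67.1 lay under that array's 40th percentile of 91.0. The same array had the highest 20th percentile of the 8, at 38.1 against 28.5 and 21.0 in control. Cd14, a monocyte marker, read 201 and 449.7 at 4 h, against 251 and 422 in control, and Itgam stayed at or below 36.4 on all arrays. No marker of this list was at 0, and the sum on both 4 h arrays lay below that of the control array of the same number. On the first 2 h array it lay above that control array, and the part of these cells in the Il6 signal was not tested.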

How the data were processed

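Signals of 8 Affymetrix rat arrays were used. Per the series design, Affymetrix software of version 5.0 turned the scans into signals, and the deposited intensity values are 1 scaled signal per probe set, without detection calls. Gene names came from the platform annotation held by GEO: 7018 probe sets had 1 symbol, 308 several and 1473 none here. Of 8799 probe sets, 59 control features were left out. The offset of 21.1 is the median of the arrays' 20th percentiles, and 5877 of 8740 probe sets passed the filter of 2 arrays at or above their 40th percentile. limma 3.58.1 in R 4.3.3 fitted all 4 groups together (4 residual degrees of freedom, eBayes with trend, two-sided). It was tested on simulated data.

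Members and lists were chosen with earlier results of these data known. All member probe sets are named; of the list genes, those called with or without the block, or the 3 with the largest change. A gene is shown by its tested probe set with the highest mean. For the pairing, deviations of same-numbered arrays from their group means had correlations of 0.387 to 0.569 over the 6 group pairs (minimum for pairing 0.1), and the scan days differ, so the array number was used as a replicate block. The number of arrays limits the precision.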

Additional observations from a re-analysis of the deposited data

How the results depend on the processing

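Of 66 member values recomputed under 8 other settings and by leaving out each of the 8 arrays, 0 of 1056 reversed a call, 15 lost one and 4 gained one. Il6 kept its calls at 2 h and 4 h under the 8 other settings in both probe sets. With the replicate block of array numbers and with the recorded experiment as a block, 1 member was called at 1 h and 2 for 4 h against 1 h. That last count, 1 in the fit as reported, was 0 with an offset of 1, without the filter and without the trend. Leaving out 1 array gave 0 to 0 members at 1 h, 1 to 2 at 2 h, where M26745cds_s_at lost its call without either control array or either 2 h array (adjusted p up to 0.157), 2 to 2 at 4 h and 0 to 0 between times. Over all probe sets, the counts of 31, 57 and 90 at 1, 2 and 4 h became 79, 186 and 466 with the replicate block, and 152 and 165 at 2 h and 4 h with the recorded experiment as the block. At 4 h, 56 were higher and 34 lower, against 85 and 25 after scaling to a common median. Leaving out 1 array gave 5 to 27, 19 to 52 and 32 to 87. For 4 h against 1 h the count of 28 became 300 and 201 with the blocks, 4 without the trend and 0 to 23 on leaving out 1 array. For 2 h against 1 h, 0 were called (164 with unadjusted p under 0.05), 2 with the replicate block, 1 after quantile normalization and 0 to 0 on leaving out 1 array. For 4 h against 2 h, 0 were called (330 with unadjusted p under 0.05), 32 with the replicate block, 1 with the recorded experiment and 0 to 1 on leaving out 1 array. The causes were not tested. With 2 arrays per group and no detection calls, the control level of Il6 cannot be told from background.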

Other observations

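The nearest profiles of the other members were drawn up in the same way, as a description. The 5 genes most like Vcam1 had correlations between 0.962 and 0.984 over the 8 arrays, led by Serpinb9 and Mipep, and those most like Nfkbia between 0.929 and 0.959, led by Sephs2. For Il1b they lay between 0.943 and 0.990, for Icam1 between 0.820 and 0.874, and for Ccl2 between 0.681 and 0.721.

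Among the other NF-kB targets, Birc2, an inhibitor of apoptosis chosen here after its values were seen, had the largest change that did not pass. Its log2 fold changes were 1.77, 2.07 and 1.86 at 1, 2 and 4 h, each with an SE of 0.72. At 2 h and 4 h limma adjusted p was 0.565 and 0.366. It read 11.9 and 6.72 in control, 39.3 and 155 at 1 h, 44.5 and 224 at 2 h, and 69.7 and 111 at 4 h. Both control arrays lay under their 40th percentiles of 82.3 and 71.9, so it was tested through GSNO arrays only.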
